A study of Mus musculus with 8 samples.

Results

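Rod and cone photoreceptors are specified by a small network of transcription factors that acts stepwise in postmitotic precursors. Otx2 starts the photoreceptor programme and induces Crx, and Rorb and Crx act together upstream of Nrl, which directs precursors to the rod fate through Nr2e3. Prdm1 restrains bipolar differentiation in the same precursors, Neurod1 and Esrrb act in photoreceptor maturation and survival, and Samd7 and Samd11 belong to a polycomb complex that represses non-rod genes in rods. The 10 factors named here (Crx, Nrl, Nr2e3, Otx2, Prdm1, Rorb, Neurod1, Esrrb, Samd7, and Samd11) were taken by gene name. Of the 10, 9 had a row under their symbol among 23021 rows, or 21828 genes after small RNAs were removed and rows of the same symbol were summed. The expression of Samd11 was not analysed here, and it enters only the search of promoter windows.

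RNA was sequenced from whole retinas of ICR mice at embryonic days 15 and 18 (E15 and E18) and from retinal cells of the same strain sorted with an antibody to Cd73 at postnatal days 2, 5, and 8 (P2, P5, and P8). No transgene or mutation is named for any group. Cd73, encoded by Nt5e, is a surface enzyme of rod precursors and rods, and the sorted fractions, each made from pooled retinas, are called Cd73PC (positive) and Cd73NC (negative). There was 1 library for each of the 8 conditions, so no difference could be compared with a replicate error, no statistical test was made, and each value describes 1 library.

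Expression is given as FPKM, the number of fragments scaled to transcript length and to the mapped fragments of the library, with the confidence bounds that Cufflinks gave, which cover the estimate within a library and not animals. The half-width of these bounds was 1.13 to 9.87% of their midpoint for the 59 values of the 9 factors with FPKM of at least 10 and 11.4 to 100% for the 13 lower values. For Otx2 and Neurod1 the deposited FPKM lay outside its own bounds in all 8 libraries, for Nr2e3 in 5, for Crx and Nrl in 3 each, and for Prdm1 in 1. The absolute depth is unknown, and depth relative to E18 ranged from 0.966 to 1.62. In Cd73PC the FPKM of Nt5e was 97.3, 131, and 124 in order of age, and in Cd73NC it was 2.43, 31.4, and 9.38, so the fractions were least separated for the sorted gene at P5. Summed FPKM of 7 vascular and blood genes rose with age, from 71.3 to 2088 in Cd73PC and from 246 to 5232 in Cd73NC between P2 and P8, mostly Hba-a1 (alpha globin, FPKM 5073 at its highest). Its part in the values below was not tested. In such bulk samples fewer cells of a type and less RNA per cell cannot be told apart.

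Crx, Nrl, Nr2e3, and Samd7 had the most similar courses of the 9 factors, and the sequence before their start sites is shown to place them on the genome and to show which recognition motifs of the group lie in it. Each window holds the 250 bases before the RefSeq start site, read 5′ to 3′ on the strand of the gene (RefSeq, GRCm38.p6). Each of the 4 windows printed was found at exactly 1 place in the region around its gene in NCBI37/mm9, the build of the files. The rest of that build was not searched. All 10 factors had at least 1 RefSeq window. That of Samd11, which had no row to give its position, was not looked for in NCBI37/mm9. Capitals mark matches on either strand to TAATCC (the homeodomain core bound by Crx and Otx2), TGCTGAC (a Maf site of the kind bound by Nrl), CAGATG (an E-box, Neurod1), AGGTCA and AAGTCA (nuclear receptor sites), or GAAAGTG (Prdm1).
Crx, chr7:16465305-16465554, minus strand: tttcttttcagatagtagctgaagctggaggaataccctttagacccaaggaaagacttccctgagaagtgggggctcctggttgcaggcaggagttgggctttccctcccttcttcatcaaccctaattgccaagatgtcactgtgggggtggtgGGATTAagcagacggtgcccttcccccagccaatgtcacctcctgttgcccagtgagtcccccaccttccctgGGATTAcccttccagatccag
Nrl, chr14:56143090-56143339, minus strand: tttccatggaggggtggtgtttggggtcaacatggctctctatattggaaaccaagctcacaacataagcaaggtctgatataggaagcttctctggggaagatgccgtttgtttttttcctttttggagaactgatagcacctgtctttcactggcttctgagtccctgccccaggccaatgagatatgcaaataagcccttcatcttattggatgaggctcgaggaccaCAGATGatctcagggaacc
Nr2e3, chr9:59797887-59798136, minus strand: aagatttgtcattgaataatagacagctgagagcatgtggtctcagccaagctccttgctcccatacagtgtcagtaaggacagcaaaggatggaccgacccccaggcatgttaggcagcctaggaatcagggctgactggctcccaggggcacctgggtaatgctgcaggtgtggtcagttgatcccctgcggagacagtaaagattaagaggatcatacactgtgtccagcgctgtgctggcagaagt
Samd7, chr3:30644965-30645214, plus strand: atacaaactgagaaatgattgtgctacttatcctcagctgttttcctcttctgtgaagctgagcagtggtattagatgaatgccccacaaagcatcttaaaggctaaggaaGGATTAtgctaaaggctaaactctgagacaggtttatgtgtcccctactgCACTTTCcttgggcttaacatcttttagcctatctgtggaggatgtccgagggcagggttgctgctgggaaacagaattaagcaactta
The Crx window held 2 TAATCC matches on the opposite strand, written GGATTA, at 94 and 21 bases before the start. The Samd7 window held a TAATCC match at 139 and a GAAAGTG match at 89 bases before the start, both on the opposite strand, and the Nrl window held CAGATG at 19. The Nr2e3 window held none of the 6 motifs. At least 1 window of 4 of the 10 factors (Crx, Otx2, Samd7, and Samd11) held TAATCC, against 6.25% of 32536 RefSeq windows of the same length, and AGGTCA was in no window of the 10 although 14.0% of all windows held it. Some factors had several windows and others 1, so a count of factors and a share of windows are unlike measures. The TAATCC match of Otx2 was in a window whose start lay 2237 bases outside the span of the gene given below. A match describes the letters only.

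The genes lie on 8 chromosomes of NCBI37/mm9, and no row of another gene overlapped any of them. Crx spans chr7:16451296-16465304 and Nr2e3 chr9:59790578-59797886, both on the minus strand, with the windows above directly adjacent to them. Samd7 spans chr3:30645215-30666096 on the plus strand. Nrl spans chr14:56137815-56143802 on the minus strand, so that its RefSeq start and window lay inside the span of the file, 713 bases from its edge. The other genes were Otx2 (chr14:49277859-49282547), Prdm1 (chr10:44156981-44178493), Rorb (chr19:19005099-19185686), and Neurod1 (chr2:79292798-79296793) on the minus strand and Esrrb (chr12:87702067-87862578) on the plus strand.

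The first group consists of the factors that commit precursors to the rod fate. Nrl, the leucine zipper factor on which rod identity depends, was at FPKM 3.19 at E15 and 36.9 at E18, at 28.3, 277, and 107 in Cd73NC at P2, P5, and P8, and at 984, 1317, and 1417 in Cd73PC at the same stages. All 3 Cd73PC libraries were above every other library, and the bounds of the Cd73PC and Cd73NC libraries did not overlap at any stage. Nr2e3, the nuclear receptor that acts below Nrl and represses cone genes in rods, was at FPKM 0.0763 at E15, where its lower bound was 0, and at 28.9 at E18. Its levels were 7.63, 199.5, and 89.8 in Cd73NC and 950, 1433, and 1140 in Cd73PC. Nr2e3 therefore had the widest range of the 9 factors, and its Cd73NC level at P2 was below that of E18 whole retina.

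Crx, the homeodomain activator shared by rods and cones, was already at FPKM 43.1 at E15 and 81.8 at E18. It was at 102, 438, and 293 in Cd73NC and at 660, 859, and 966 in Cd73PC at P2, P5, and P8. The Cd73NC levels of Crx at P5 and P8 were well above the E18 level, unlike the FPKM of 102 at P2, and the 2 fractions were closest at P5. Samd7 was at FPKM 0.0491 at E15, with a lower bound of 0, and at 6.96 at E18. Its levels were 2.54, 55.4, and 22.1 in Cd73NC and 141, 203, and 191 in Cd73PC, so that its 8 libraries fell in the same order as those of Nr2e3, at lower levels.

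Otx2, which precursors of photoreceptors and bipolar cells express, was at FPKM 97.0 at E15 and 162 at E18. It was at 349, 851, and 552 in Cd73NC and at 777, 492, and 353 in Cd73PC at P2, P5, and P8. The fractions changed places between P2 and P5, since Otx2 was higher in Cd73PC at P2 and in Cd73NC at P5 and P8. Neurod1, a basic helix-loop-helix factor of photoreceptor and amacrine precursors, was at FPKM 68.3 and 113 in the embryonic retinas, at 202, 440, and 158 in Cd73NC, and at 687, 626, and 568 in Cd73PC. Its Cd73PC level was above the Cd73NC level at each stage and was highest at P2.

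Prdm1, a zinc finger repressor of newborn photoreceptor precursors, was at FPKM 22.8 at E15 and 30.6 at E18, at 36.6, 53.3, and 12.5 in Cd73NC, and at 108, 51.6, and 47.5 in Cd73PC. Its highest value was in Cd73PC at P2 and its lowest in Cd73NC at P8, and the bounds of the 2 fractions overlapped at P5. Rorb, an orphan nuclear receptor also found in other retinal neurons and progenitors, varied least, from FPKM 37.1 in Cd73NC at P8 to 81.8 in Cd73NC at P5. Its Cd73PC levels were 52.6, 57.9, and 50.9, against 52.2 in Cd73NC at P2. Esrrb, an orphan nuclear receptor linked to rod survival, came last: its FPKM was 0.395 at E15 and 1.11 at E18, then 0.144, 4.96, and 26.3 in Cd73PC with age, and 0.0915, 0.231, and 1.64 in Cd73NC. Only the last Cd73PC library was above FPKM 10, and the bounds of the fractions overlapped at P2.

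**Figure D1:**
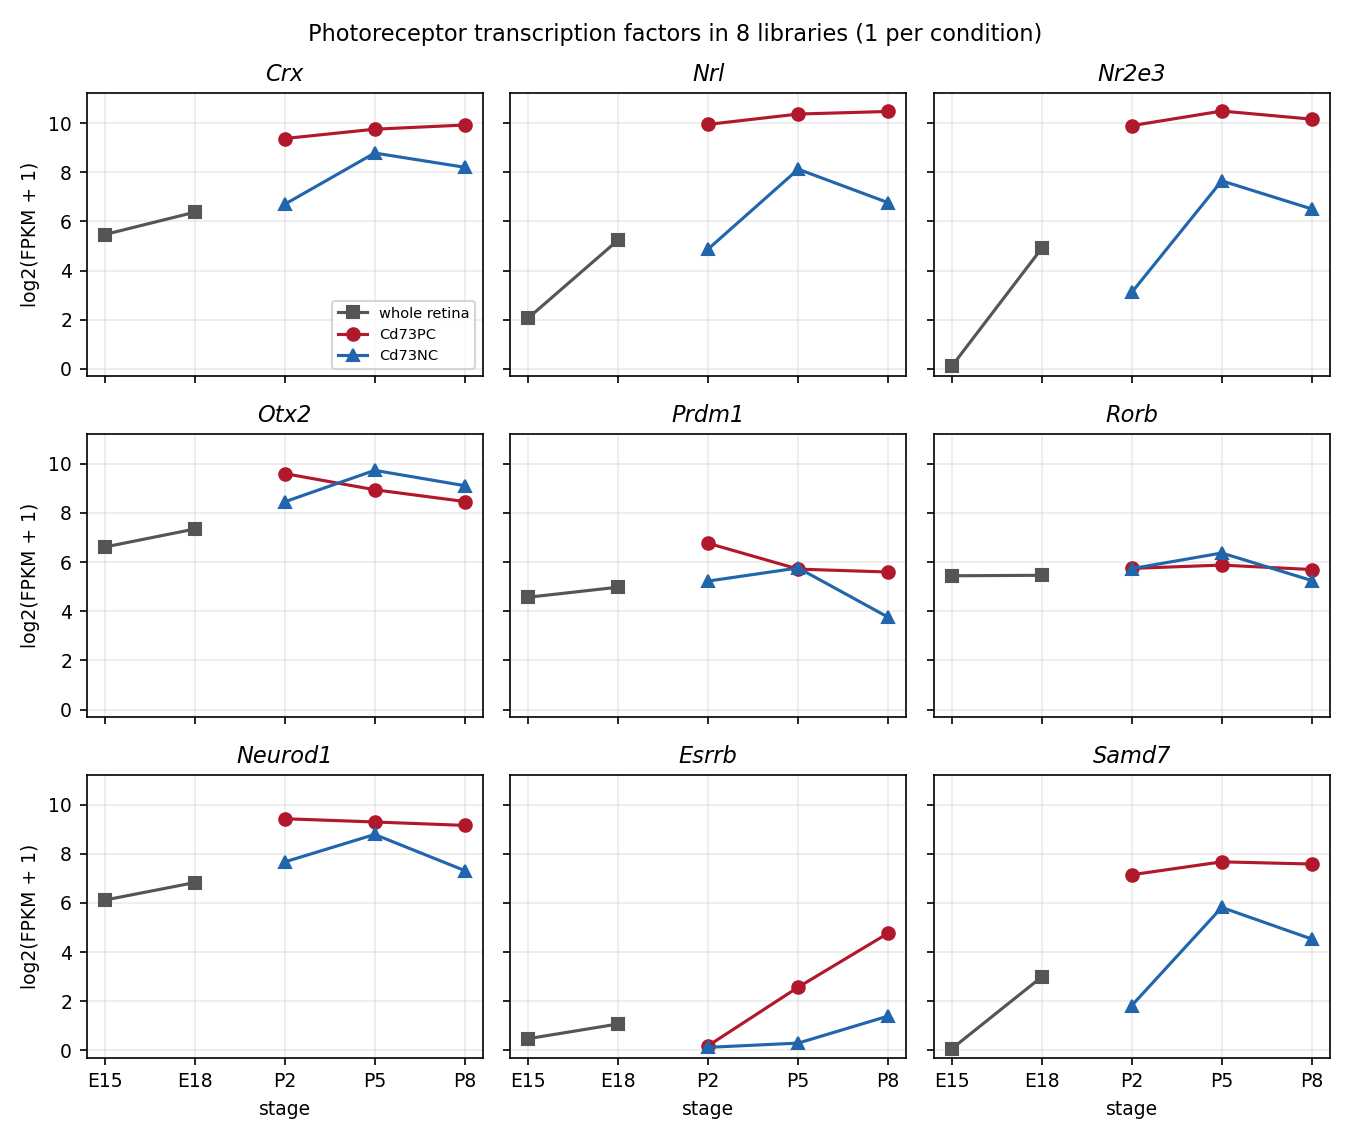
Log2(FPKM + 1) of the 9 factors in each of the 8 libraries, with 1 panel per gene, squares for whole retina, circles for Cd73PC, triangles for Cd73NC, and lines joining libraries of a kind. Nrl, Nr2e3, Crx, and Samd7 are highest in the 3 Cd73PC libraries, the lines of Otx2 cross between P2 and P5, and Esrrb rises from near 0 to an FPKM of 26.3 in the oldest Cd73PC library.

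Within a library the factors were ordered by the deposited FPKM, which is scaled to length. Otx2 was the highest of the 9 in E15, E18, and all 3 Cd73NC libraries, and Nrl or Nr2e3 was the highest in the 3 Cd73PC libraries. Otx2 had 2.25 times the FPKM of Crx at E15, 1.98 times at E18, and 3.41, 1.94, and 1.88 times in Cd73NC at P2, P5, and P8, against 1.18, 0.572, and 0.365 times in Cd73PC. The FPKM of Nrl per FPKM of Crx was 0.0740 at E15 and stayed at 1.49, 1.53, and 1.47 in Cd73PC. In Cd73NC that ratio was 0.277, 0.633, and 0.366, so the Nrl and Crx transcripts in Cd73NC were not in the proportion found in Cd73PC at any stage. Neighbours in the order whose bounds overlapped were Crx and Rorb at E15, Nr2e3 and Samd7 at E15, Prdm1 and Nr2e3 at E18, and Samd7 and Prdm1 in Cd73NC at P5. For 3 other pairs the bounds were apart in the order opposite to the FPKM, namely Neurod1 and Crx in Cd73PC at P2 and in Cd73NC at P5, and Nr2e3 and Nrl in Cd73PC at P5, so the order of these pairs is not settled. Summed over the 9 factors, FPKM was 278 at E15, 504 at E18, 782, 2397, and 1274 in Cd73NC, and 4358, 5045, and 4760 in Cd73PC.

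The comparison of Cd73PC with Cd73NC asks which factors differ between the sorted fractions at each stage. The fractions are not pure lineages, since rod genes were also present in Cd73NC. A gene was counted as higher or lower when the ratio of FPKM + 1 between 2 libraries passed 1.5-fold, and all ratios below are on the log2(FPKM + 1) scale, which understates the difference of low genes. At P2, 7 of the 9 factors were higher in Cd73PC and 0 lower, while 8.56% of all genes were higher and 14.4% lower. At P5, 5 were higher and 1 lower (7.02% and 15.5% of all genes), and at P8, 7 were higher and 1 lower (7.54% and 18.6% of all genes). The median log2 ratio of the 9 factors was 1.76, 0.97, and 1.84, against 0, 0, and -0.02 over all genes. Most of the 9 factors are well expressed, and among genes with FPKM of at least 1 in any library 13.7%, 11.3%, and 12.1% were higher and 23.3%, 25.1%, and 29.6% lower in Cd73PC, by stage.

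Crx, Nrl, Nr2e3, and Samd7 were higher in Cd73PC at all 3 stages, which 4 of the 9 factors and 3.51% of all genes were. The log2 ratio of Nrl was 5.07, 2.24, and 3.71 at P2, P5, and P8, that of Nr2e3 was 6.78, 2.84, and 3.65, that of Samd7 was 5.32, 1.85, and 3.05, and that of Crx was 2.68, 0.97, and 1.72. For each of these 4 genes the ratio was thus largest at P2 and smallest at P5, the stage at which Nt5e was also least separated. Neurod1 had log2 ratios of 1.76, 0.51, and 1.84, and Prdm1 of 1.54, -0.05, and 1.84, so that neither passed 1.5-fold at P5. With libraries scaled to the same upper quartile, Neurod1 passed at P5 as well, at a log2 ratio of 0.61.

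The log2 ratios of Otx2 were 1.15, -0.79, and -0.64. It was the only one of the 9 factors that was higher in Cd73PC at P2 and lower at P5 and P8, a pattern that 77 of 21808 genes (0.353%) had. Under upper quartile scaling the ratio at P8 was -0.48 and no longer past 1.5-fold, and under quantile normalization it was -1.14. Rorb passed 1.5-fold at no stage, with log2 ratios of 0.01, -0.49, and 0.45, and of the scalings upper quartile alone took it past at P8 (0.61). Esrrb was at FPKM below 0.2 in both fractions at P2 and had log2 ratios of 2.28 at P5 and 3.37 at P8.

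**Figure D2:**
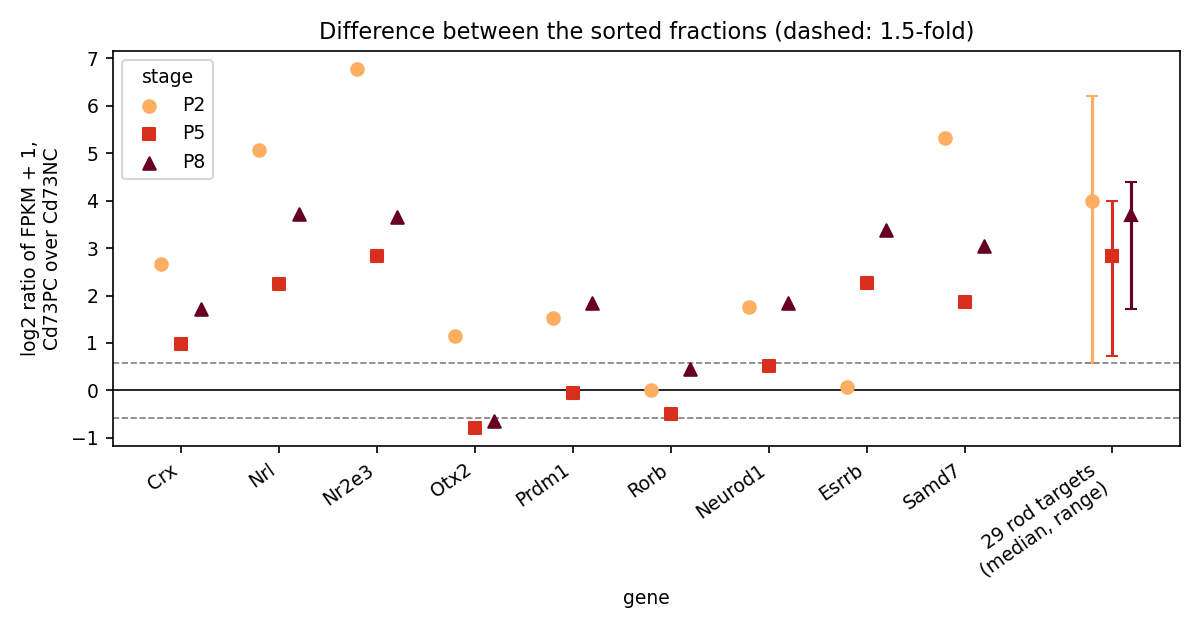
Log2 ratio of FPKM + 1 in Cd73PC over Cd73NC for each of the 9 factors at P2, P5, and P8, with dashed lines at 1.5-fold and, at the right, the median (symbol) and range (bar) of 29 rod genes. Otx2 is above 0 at P2 (1.15) and below it later (-0.79 and -0.64), Rorb stays within the lines, and Nr2e3 has the largest value at P2 (6.78).

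Other regulators and marker genes were counted in the same way to place the 9 factors among the cell types that the fractions held. All of 29 rod genes, among them many known targets of Crx and Nrl, were higher in Cd73PC at P5 and P8 and 28 were at P2, with median log2 ratios of 3.999, 2.83, and 3.71. They ran from Unc119 (1.71), a synaptic and trafficking protein of photoreceptors, to Rp1 (4.39), a protein of the outer segment axoneme, at P8. Of 10 cone genes, 5 were higher and 0 lower at P2, 2 higher and 1 lower at P5, and 4 higher and 1 lower at P8. The cone gene with the largest ratio at P8 was Gngt2, a cone transducin gamma subunit (2.41), and the lowest was Gnb3, the cone transducin beta subunit that bipolar cells also express (-0.60).

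Among 20 other regulators of photoreceptor and related fates, 19 could be compared, of which 7, 7, and 8 were higher in Cd73PC and 4, 9, and 9 lower, by stage. Casz1, a zinc finger factor, had the largest log2 ratio at P8 (3.21), and Tbx2, a T-box factor, the smallest (-3.04). Neurod4, a bHLH factor of bipolar and amacrine precursors, was at FPKM 349, 152, and 86.5 in Cd73PC and 252, 684, and 544 in Cd73NC, in order of age. It was thus on the Cd73NC side at P5 and P8, as Otx2 was, and its log2 ratio of 0.47 at P2 was within 1.5-fold. Of 15 partners in polycomb complexes, the setting in which Samd7 acts, 2 were higher and 4 lower at each stage, and the median log2 ratios were 0.00, -0.04, and -0.15. The extremes at P8 were Cbx8 (0.98) and L3mbtl3 (-1.85).

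Markers of other retinal cells also differed between the fractions. Of 13 bipolar genes, 4 were higher and 3 lower in Cd73PC at P2, 1 higher and 9 lower at P5, and 0 higher and 13 lower at P8. Their summed FPKM was 69.1, 168, and 2068 in Cd73NC and 82.3, 59.0, and 273 in Cd73PC. At P8 the log2 ratio ran from -3.59 (Vsx1, a homeodomain factor of cone bipolar cells) to -1.72 (Prkca, the kinase used to mark rod bipolar cells). All 10 progenitor genes were lower in Cd73PC at each stage, and of the 8 genes of Muller glia 6, 7, and 8 were lower. Of 10 amacrine genes 8, 7, and 3 were lower in Cd73PC, and 1 was higher at each stage (at P8 Slc6a9, log2 ratio 2.18). Of 6 horizontal genes 3, 3, and 2 were lower and 1, 0, and 0 higher, and of 8 ganglion cell genes 6, 3, and 2 were lower and 0 higher. Isl1 was counted in both the bipolar and the ganglion cell list, and Tfap2b in both the amacrine and the horizontal list. The median FPKM of the amacrine, horizontal, and ganglion cell lists in Cd73NC was below 1 at P8 (0.489, 0.526, and 0.421), where a ratio of FPKM + 1 can hardly pass 1.5-fold. Of the bipolar, progenitor, and Muller lists the bipolar one grew most in Cd73NC between P5 and P8. Grm6 (the glutamate receptor of ON bipolar cells) and Bhlhe23 (a bHLH factor of bipolar cells) were at 0 in Cd73NC at P2, and no gene of the bipolar list was at 0 from P5 on. Otx2 in Cd73NC was at FPKM 851 at P5 and 552 at P8. The difference was past 1.5-fold as deposited and within it under quantile normalization. At this step 7 of the 9 factors were lower, Otx2 among them. The part of any of these cells in the levels of the 9 factors was not tested.

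The reverse question is how much of each factor was left in Cd73NC. For the 29 rod genes the Cd73NC level was a median of 4.13% of the Cd73PC level at P2 (0%, Slc24a1, to 35.7%, Gnb1), 12.6% at P5 (5.55%, Cnga1, to 51.4%, Guca1b), and 7.52% at P8 (4.56%, Rp1, to 30.5%, Unc119). Nrl stood at 2.88, 21.1, and 7.57% and Nr2e3 at 0.804, 13.9, and 7.87%, which was inside the range of the rod genes at each stage. Samd7 was also inside that range, at 1.81, 27.3, and 11.6%. Crx stood at 15.5, 51.0, and 30.3%, within the range but above 28 of the 29 rod genes at both P5 and P8. The rod gene above it was Guca1b at P5, at FPKM 2.16 in Cd73NC and 4.21 in Cd73PC, and Unc119 at P8.

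Otx2 (45.0, 173, and 156%) and Rorb (99.3, 141, and 72.9%) stood above the highest of the 29 rod genes at all 3 stages. Neurod1, at 29.5, 70.3, and 27.9%, was above it at P5 and Prdm1, at 33.9, 103, and 26.4%, likewise. Esrrb was above all of them at P2 (63.7%), where both its levels were near 0, and at 4.65% and 6.22% later, the first of these below all 29 rod genes. In all, 6, 8, and 8 of the 9 factors were above the median of the rod genes at P2, P5, and P8, and 3, 4, and 2 above the highest of them. Nearly all rod genes were higher in Cd73PC past 1.5-fold, but only 8.56, 7.02, and 7.54% of all genes were, by stage. A place above the rod genes is thus not particular to the factors, and the share of all genes there was not counted. The highest rod gene was Gnb1, Guca1b, and Unc119 in turn, and Gnb1 and Unc119 were at FPKM 235 and 57.4 already at E15.

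**Figure D3:**
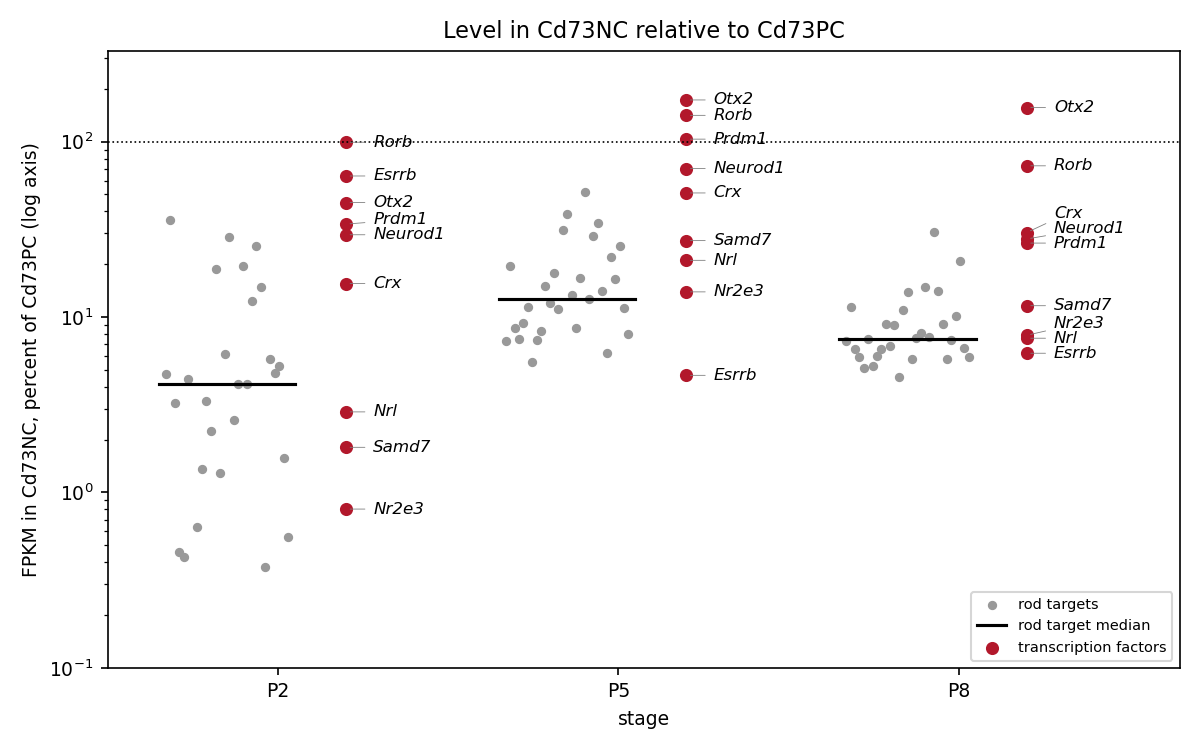
Level in Cd73NC as a percent of the level in Cd73PC (log axis) at P2, P5, and P8 for the 9 factors (red) and the 29 rod genes (grey, with their median as a bar), except Slc24a1 at P2, which was 0% and cannot be drawn. Nrl, Nr2e3, and Samd7 lie among the rod genes, and Otx2 and Rorb lie above all of them at every stage.

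The series of stages was then read within each kind of sample, with the reservation that consecutive steps share a library. Between E15 and E18, 7 of the 9 factors were higher and 0 lower (4.61% and 2.09% of all genes), all but Prdm1 (log2 ratio 0.41) and Rorb (0.02). Nr2e3, Nrl, and Samd7 had the largest ratios of this step, at 4.80, 3.18, and 2.92, and Esrrb barely passed (0.60), which it did under neither scaling. From E18 whole retina to Cd73PC at P2, a step that also changes from a whole tissue to a sorted fraction, 7 were higher and 1, Esrrb, lower (8.78% and 18.3% of all genes). The values for this step ran from 4.99 (Nr2e3) to -0.88 (Esrrb), with Rorb at 0.28.

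Within Cd73PC, from P2 to P5, Nr2e3 (log2 ratio 0.59) and Esrrb (2.38) were higher and Otx2 (-0.66) and Prdm1 (-1.05) lower, and the other 5 factors were within 1.5-fold (3.36% of all genes were higher and 8.57% lower). Nr2e3 was close to the threshold and stood within it, at 0.35, under quantile normalization. Under upper quartile scaling Otx2 stood at -0.54, within 1.5-fold, and Samd7 passed at 0.65. From P5 to P8 in Cd73PC, only Esrrb passed (log2 ratio 2.20), with 3.31% of all genes higher and 4.78% lower. The other 8 factors ran from -0.48 (Otx2) to 0.17 (Crx), whereas 19 of the 29 rod genes were higher at this step.

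In Cd73NC, 7 of the 9 factors were higher and 0 lower at P5 than at P2 (7.93% and 9.52% of all genes), all but Prdm1 and Esrrb, and at P8 1 was higher and 7 lower than at P5 (8.47% and 7.78%). The 7 that were lower at P8 included Nrl (log2 ratio -1.36), Neurod1 (-1.47), Samd7 (-1.29), and Otx2 (-0.62). Under quantile normalization Otx2 stood at -0.36, within 1.5-fold, and 6 were lower. Crx, at -0.58, was just short of 1.5-fold and passed under upper quartile scaling (-0.61), and Esrrb was the factor that was higher (1.10). The FPKM of the 29 rod genes did not share this step, with 7 higher, 3 lower, and a median log2 ratio of 0.09. As a percent of the Cd73PC level, however, the median of the rod genes in Cd73NC was 12.6% at P5 and 7.52% at P8. Nt5e was at FPKM 2.43, 31.4, and 9.38 in these 3 libraries, so that it too was highest at P5, and the part of the sort in these steps was not tested.

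In Cd73PC at P2 most rod genes were below 50% of their P8 level, whereas most factors, like most well expressed genes, were at 50% or more. Cd73PC at P2 already held 68.3% of the P8 level of Crx, 69.5% of that of Nrl, 83.3% of that of Nr2e3, and 73.8% of that of Samd7. Rorb stood at 103%, Neurod1 at 121%, Otx2 at 220%, and Prdm1 at 227%, all past their P8 level, and Esrrb at 0.546%. Of the 9 factors, 8 were at 50% or more and above the highest of the 29 rod genes (Impg2, 66.9%), whose median was 21.3% and of which 6 reached 50%. Among 6020 genes with FPKM of at least 10 in Cd73PC at P8, 92.8% were at 50% or more and the median was 106%. The share of factors at 50% or more was thus near that of all genes, and that of the rod genes was lower.

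**Figure D4:**
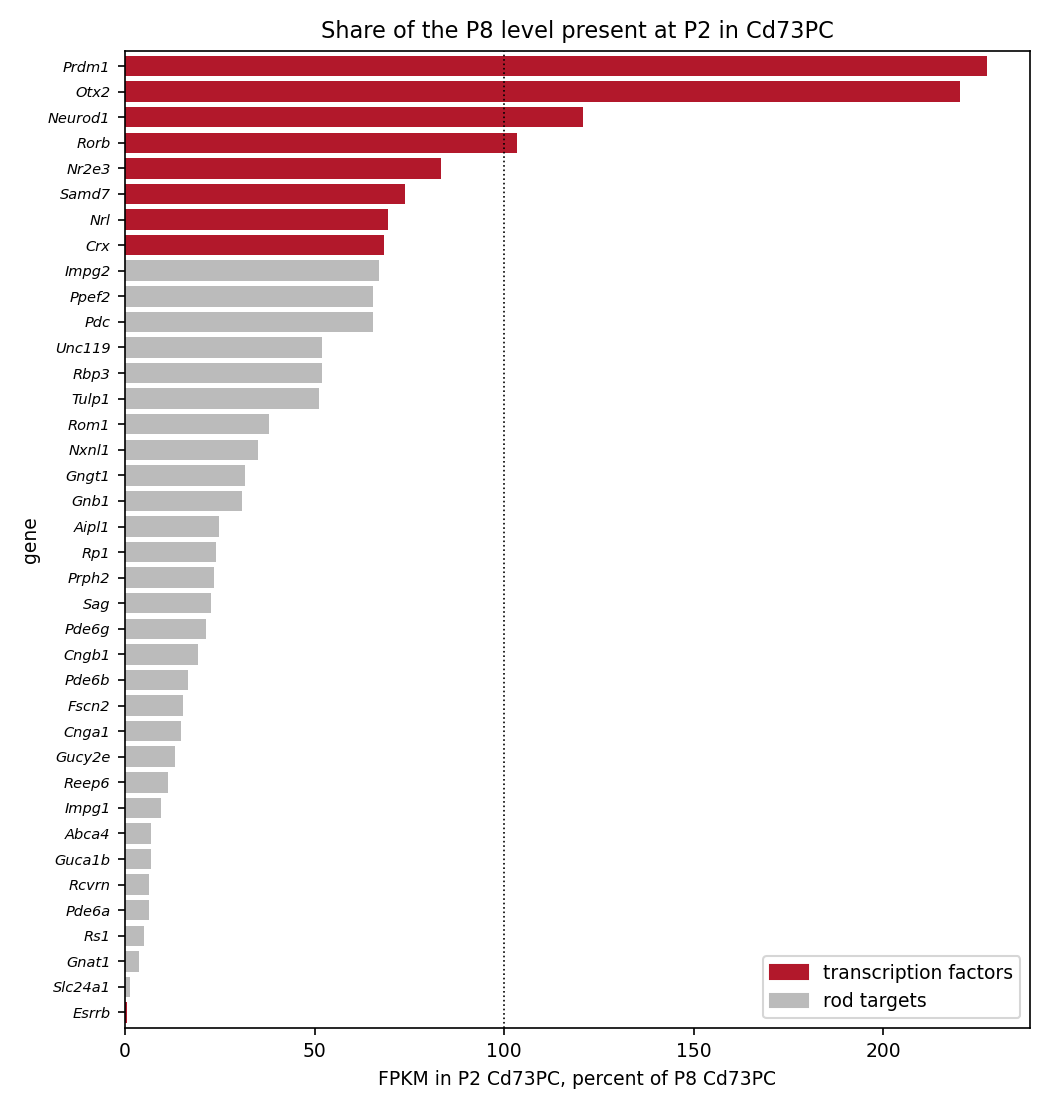
FPKM in the youngest Cd73PC library as a percent of that in the oldest, as bars for the 9 factors (red) and the 29 rod genes (grey), with a dotted line at 100%. Of the factors, 8 lie above every rod gene (highest 66.9%), and Esrrb lies at 0.546%. Among 6020 genes with FPKM of at least 10 in the oldest Cd73PC library, not drawn, the median was 106%.

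The pattern over the 8 libraries was compared between genes by Pearson's r of log2(FPKM + 1) over 8803 genes with a highest FPKM of at least 10. It is given as a description, without a p-value, since the 8 libraries differ in age and in sorting at once. Nrl, Nr2e3, and Samd7 were most alike (r = 0.99 for Nrl and Nr2e3), with Crx next (r = 0.98 with Nrl), and Esrrb had r = -0.01 with Otx2 and 0.01 with Prdm1. The genes most similar to Nrl were Rbp3, a retinoid-binding protein of the photoreceptor matrix (0.998), Samd7 (0.994), and Nr2e3 (0.993), and Rbp3 was also among the 3 closest to Nr2e3 (0.991) and Samd7 (0.993). For Crx these were Ttyh2 (0.994), Lgmn (0.994), and Rom1 (0.992), the last a structural protein of outer segment discs.

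Otx2 was closest to Pdcd4 (0.991), Vezf1 (0.977), and Yipf6 (0.970), and Neurod1 to Hist1h1c (0.994), 5430407P10Rik (0.992), and Dcaf8 (0.988). Prdm1 was closest to Zc3h14 (0.975), Pik3r1 (0.970), and Heca (0.970), Esrrb to Atp11a (0.983), Slc3a2 (0.979), and Ppap2c (0.977), and Rorb to Hadha (0.919), Zfp192 (0.904), and Abhd4 (0.895). More genes passed r = 0.95 with Crx (195), Nrl (179), Samd7 (152), and Nr2e3 (102) than with Neurod1 (63), Otx2 (11), Esrrb (11), Prdm1 (7), or Rorb (0). The nearest genes depended on the measure: with Spearman's rho in place of Pearson's r, 3 of the 27 genes stayed the same.

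**Figure D5:**
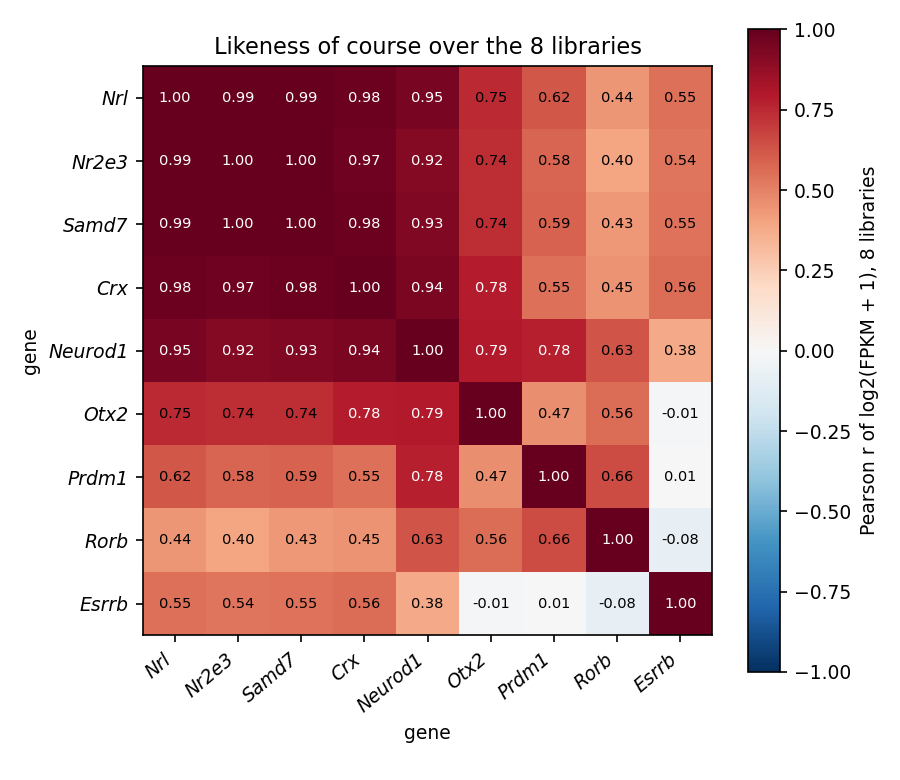
Pearson's r between the 9 factors over log2(FPKM + 1) in the 8 libraries, as a matrix with the value in each cell. Crx, Nrl, Nr2e3, and Samd7 form a block with r from 0.97 upward, and Esrrb has r near 0 with Otx2, Prdm1, and Rorb.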

How the data were processed

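The authors aligned 36-base single-end reads to NCBI37/mm9 (CASAVA 1.8.2, bcl2fastq 1.8.4, TopHat2 2.0.8b, and Cufflinks 2.1.1 are named in the submitters' processing notes) and deposited, for each library, FPKM values of 23021 rows with their bounds and a status. FPKM is already scaled to length and to mapped fragments, and no count model was used. Failed rows (4 to 10 per library) were taken as missing, 787 small RNA rows were removed, and values were added up for 235 symbols that had several rows, leaving 21828 genes. File starts were raised by 1 to print them. In 1428 to 2170 rows per library FPKM lay outside its own bounds, so the bounds served as a description and as 1 alternative.

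Relative depth came from the most common ratio of FPKM between rows below 0.3. Ratios used a pseudocount of 1 and a threshold of 1.5-fold. Alternatives were pseudocounts of 0.1 and 0, a filter of FPKM of at least 1, upper quartile (75th percentile) scaling, quantile normalization, a 2-fold threshold, bounds that do not overlap, and small RNAs kept. The factors and gene lists were chosen with earlier results of these data known, and Tfap2a and Tfap2b were matched by older symbols. All factors are named, with up to 4 genes per list (largest and smallest log2 ratio at P8, highest FPKM), the 3 nearest genes to each factor, and Nt5e. A gene of the rod list is not reported here and was left out of its counts. Genes printed as the range ends of the rod genes come from their own rankings, and Grm6 and Bhlhe23 were named beyond this rule for their FPKM of 0 in Cd73NC at P2. Samples were grouped by their titles. Analyses used Python 3.11.15, numpy 2.4.6, pandas 2.3.3, and matplotlib 3.10.9, tested on simulated data first.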

Additional observations from a re-analysis of the deposited data

Results flagged for a closer look

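Otx2 was marked because its difference between the fractions, and its change with age, ran in opposite directions. The log2 ratio of Cd73PC over Cd73NC was -0.79 at P5 and -0.64 at P8, against 1.15 at P2. Between P2 and P5 the log2 ratio of Otx2 was -0.66 within Cd73PC and 1.28 within Cd73NC. With 1 library per condition, these differences were not tested.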

How the results depend on the processing

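With a threshold of 2-fold in place of 1.5-fold, 3 factors instead of 7 passed between E15 and E18, 2 instead of 4 between P2 and P5 in Cd73PC, 1 cone gene instead of 2 was higher in Cd73PC at P5 and 1 instead of 4 at P8, and 4 other regulators instead of 7 were higher at P5. With bounds that do not overlap, 9 factors instead of 4 passed between P2 and P5 and 9 instead of 1 between P5 and P8 in Cd73PC, and 11 other regulators instead of 7 were higher at P2. Of the 27 nearest genes, 3 were kept with Spearman's rho and 16 with quantile normalization. The other 141 values, mostly totals for the factors and higher counts for the lists, stayed within 1.5 times the value reported, and no value past the threshold changed sign. Their split by direction did move: between P2 and P5 in Cd73PC from 2 higher and 2 lower to 3 and 1 (upper quartile) or 1 and 2 (quantile), for Cd73PC against Cd73NC at P8 from 7 and 1 to 8 and 0 (upper quartile), and for cone genes lower at P5 from 1 to 0 (both scalings) or 2 (no pseudocount). Of values of single factors, 386 moved by less and 19 by more than 1.5 times, the latter with another pseudocount on low levels. Scaling moved the median of all genes by up to 0.24 (log2), in Cd73PC over Cd73NC at P8 under quantile normalization. Each condition had 1 library, so none could be left out. The fractions of a stage share their retinas and were compared within the stage, and a fit over the 3 stages with stage as a block was not made. Unknown depth and missing replicates limit all differences, and values of Esrrb moved with the pseudocount also at P8 (log2 ratio 3.37 to 4.01 without one).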
